A study of Caenorhabditis elegans with 54 samples.

Results

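The insulin receptor to FOXO pathway was followed here through 10 genes of Caenorhabditis elegans: daf-2, age-1, aap-1, daf-18, pdk-1, akt-1, akt-2, sgk-1, daf-16 and ftt-2. They were taken by gene symbol from a table of 19909 genes, in which all 10 had a row, and all 10 passed the filter on low counts in every comparison. RNA of whole worms was measured in 54 libraries from 18 conditions with 3 libraries each, and every condition, L3 larvae included, carries daf-2(e1370). Animals exposed to UV light on dauer day 1 were taken on day 1 (6 and 24 h into exit) and day 4 (0, 6 and 24 h). Unexposed dauers were taken on day 1 (D1), day 4 (D4), day 15 (D15) and day 30 (D30), each before exit (0 h) and 6 and 24 h into it, and L3 larvae were the non-dauer stage. Dauer is a non-feeding, stress-resistant larval arrest. It was induced in L1 larvae by the restrictive temperature of this temperature-sensitive receptor allele, and exit by fresh bacterial food and a lower temperature, so that hours of exit, food and temperature cannot be told apart. The growth temperature of the L3 libraries and the UV dose of the RNA libraries are not given in the sources used here.

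In this pathway insulin-like peptides bind the receptor DAF-2, and the receptor activates a phosphoinositide 3-kinase that consists of the catalytic subunit AGE-1 and the adaptor AAP-1. The lipid it makes recruits the kinases PDK-1, AKT-1 and AKT-2, and the phosphatase DAF-18 removes it. AKT kinases and the related kinase SGK-1 phosphorylate the FOXO transcription factor DAF-16, which 14-3-3 proteins such as FTT-2 then hold in the cytoplasm. When signalling is low, as in daf-2 mutants, DAF-16 enters the nucleus, and larvae enter dauer. These steps act on proteins, and RNA levels measure none of them.

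In the WBcel235 annotation of Ensembl the members are protein-coding genes. The gene daf-2 lies on chromosome III from 2994514 to 3040846 (minus strand), age-1 on chromosome II from 11519328 to 11527054 (minus) and aap-1 on chromosome I from 5107843 to 5110183 (plus). On chromosome IV, daf-18 spans 420011 to 425177 (minus), and on chromosome V, akt-1 spans 10248905 to 10252845 (plus). Chromosome X holds pdk-1 from 1321344 to 1327986 (plus), akt-2 from 14147700 to 14152070 (plus), sgk-1 from 16254842 to 16262122 (minus) and ftt-2 from 11603708 to 11605419 (minus). The gene daf-16 spans 10750498 to 10776703 on chromosome I (plus) and has 11 annotated transcripts, against 7 for daf-2. All transcripts of a gene are summed in the table, so a shift between isoforms cannot be seen. Exons of a gene on the opposite strand overlap those of age-1 by 192 bases (B0334.10), of aap-1 by 136 (Y110A7A.21), of daf-16 by 84 (H36N01.5), of pdk-1 by 15 (F21E9.2) and of akt-1 by 8 (rop-1). Salmon was set to detect the library type, strand included, by itself, but the type it found is not given in the sources used here, and the part of these overlaps in the counts was not tested.

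Library totals ranged from 670302 to 12952656 estimated counts (median 8457220), and the shallowest were the D4 UV dauers at 0 h with 670302 to 856794. All 18 D4 libraries were shallow, with a median of 2707599 and at most 5978390 counts. The 36 libraries outside D4 had a median of 9337012 and at least 5455652. The part of depth in the D4 results was not tested. The D4 dauers at 0 h stood apart by yolk genes, which mark adult hermaphrodites: the 6 vitellogenins summed to 511, 681 and 2060 CPM (counts scaled to 1e+06 per library) there, ordered by size, against 0 to 17.4 CPM in the other dauer libraries at 0 h, UV libraries included. Some exit libraries held yolk reads too, with up to 258 CPM on D4 at 24 h and 157 CPM on D4 at 6 h. In exit libraries outside D4 the sums reached 140 CPM in UV-exposed D1 animals at 24 h and 116 CPM on D15 at 6 h. The 3 dauer cuticle genes col-2, col-40 and cut-1 summed to 24300 to 26200 CPM in D1 dauers, to 10.6 to 35.3 in D4, 2.51 to 3.15 in D15 and 1.45 to 1.96 in D30 dauers, and to at most 0.35 in L3 larvae. L3 replicate 3 stood apart as well. A chi-square test of its counts against those of L3 replicates 1 and 2 gave 23.4 and 29.4 per degree of freedom, against 1.99 between replicates 1 and 2 and 1.47 to 7.23 over all 52 replicate pairs without it, so the comparisons with L3 larvae are given with and without it. Results that rest on the D4 dauers at 0 h are given below also without them where a fit allows it. Levels below are CPM after TMM scaling over all 54 libraries. These are whole worms, so fewer cells of a type and less RNA per cell cannot be told apart.

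Per kilobase of exon, the order of the members over the mean of the 18 conditions was ftt-2 (246 CPM per kilobase), akt-1 (137), akt-2 (57.5), daf-2 (56.6), sgk-1 (40.8), aap-1 (31), daf-16 (28.6), pdk-1 (23), daf-18 (19.9) and age-1 (13.8). The genes for the catalytic and adaptor subunits of the kinase, for its opposing phosphatase and for the transcription factor were thus all below those for the receptor and the AKT kinases. The members also differed in how much they moved. The widest range of condition means was that of sgk-1, whose highest mean (127 CPM, D4 at 6 h) was 11.5 times its lowest (11.1 CPM, D30 at 0 h). The kinase gene pdk-1 ranged 7.88-fold, with its highest mean in D1 and its lowest (15.1 CPM) in D30 dauers at 0 h, and daf-16 ranged 6.67-fold, between 201 CPM in D15 dauers at 0 h and 30.1 CPM in L3 larvae. The ranges of aap-1 (4.3-fold), akt-1 (3.65-fold), ftt-2 (3.1-fold), daf-2 (2.81-fold), akt-2 (2.59-fold) and daf-18 (2.07-fold) were smaller, and age-1 had the smallest of the 10 (1.71-fold). The median log2 range of the members was 1.75, against 1.84 over the 10857 genes with a mean of at least 5 CPM.

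In L3 larvae daf-2, age-1, aap-1, daf-18 and daf-16 had the lowest mean of the 18 conditions, and ftt-2 had its highest. How many of all genes have an extreme mean in L3 larvae was not counted, so this does not set the members apart. For age-1 only 1 of the 17 steps between neighbours in the order of condition means was free of overlap between libraries, and for akt-1 9 of 17 were.

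**Figure D1:**
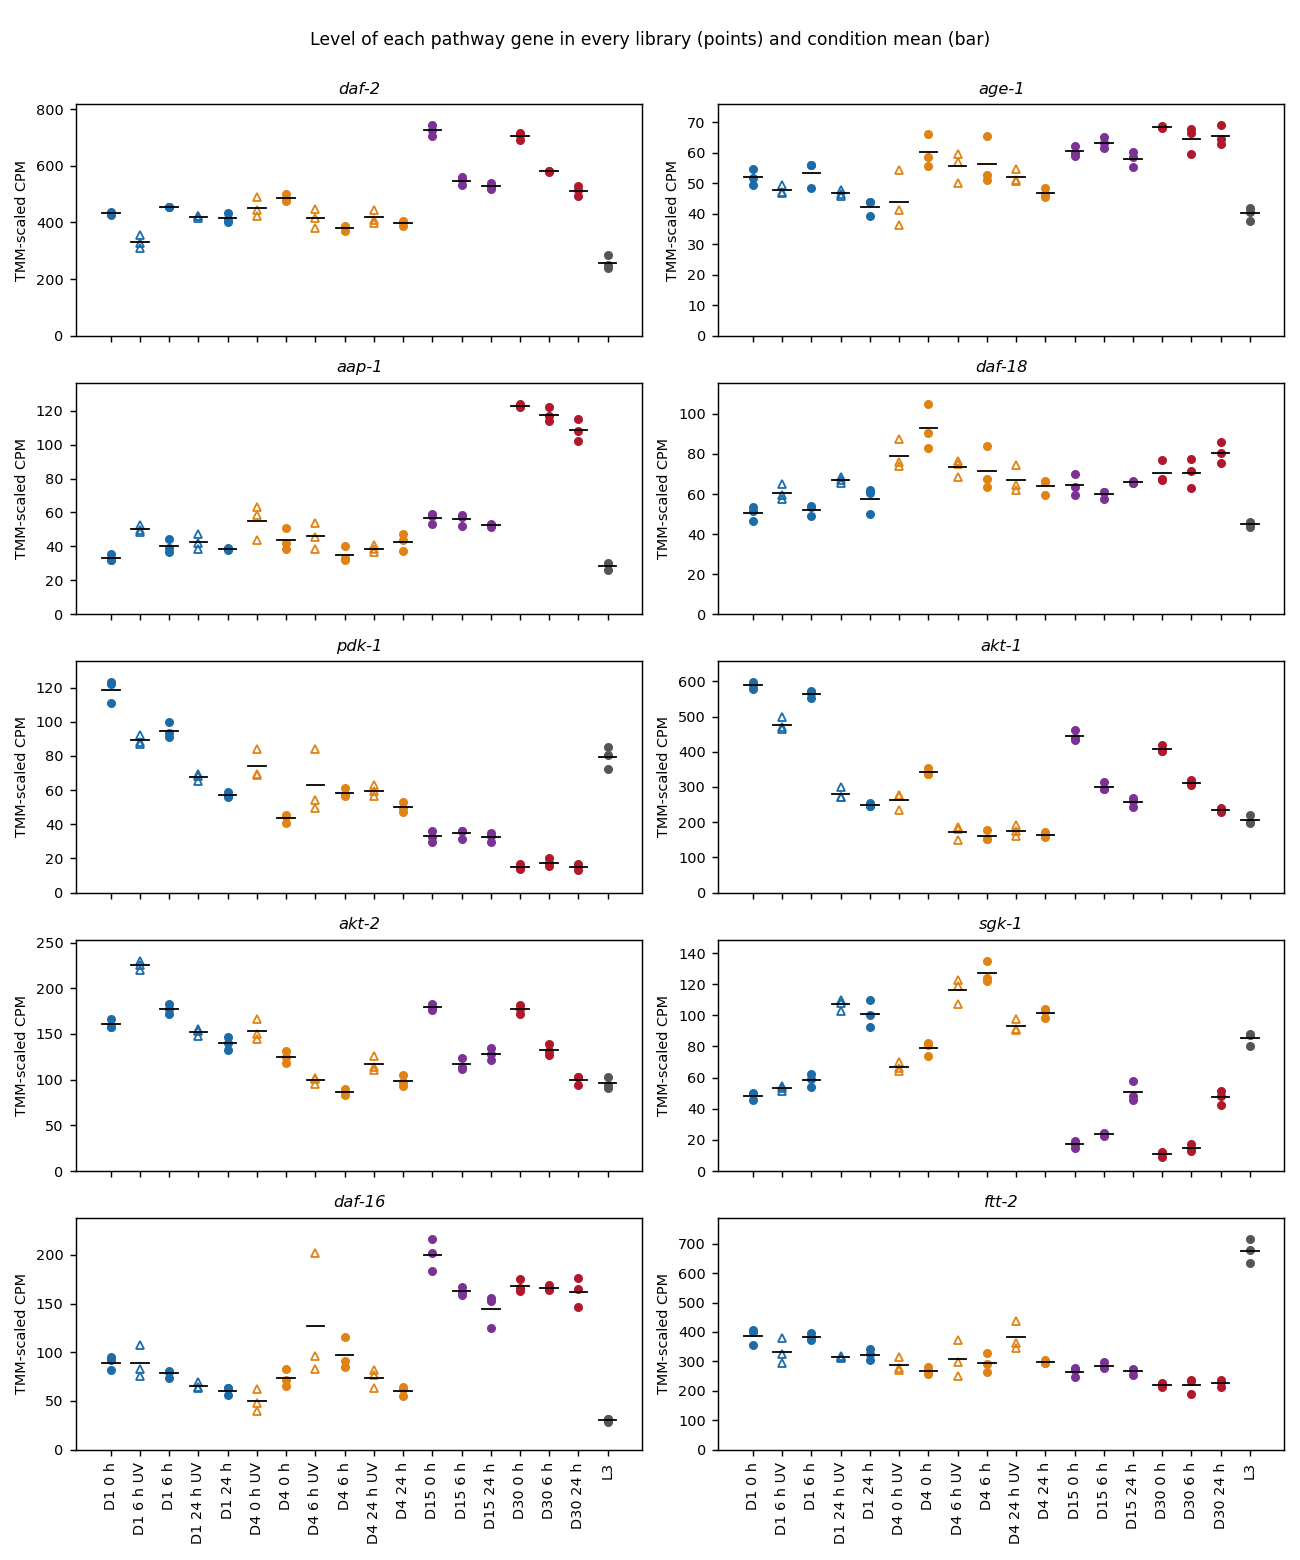
TMM-scaled CPM (linear axis from 0) of each of the 10 genes in all 54 libraries, by condition, with L3 larvae at the right. Points are libraries, open triangles UV libraries and bars condition means. The highest mean of sgk-1 (127 CPM, D4 6 h) is 11.5 times its lowest (11.1 CPM, D30 0 h), while age-1 spans 1.71-fold.

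D1 dauers were first set against L3 larvae. Of the 10 members 6 were higher in dauers, where 38.7% of the 13419 genes tested were, and 2 were lower, where 36.9% were. The median log2 change was 0.45 over the members and 0.04 over all genes. Without L3 replicate 3 the members' counts were again 6 and 2, where 41.1% and 38.3% of all genes were. The counts are a description of the list, and the sizes are given gene by gene. Tests are edgeR's quasi-likelihood test on the libraries of the comparison, two-sided, with Benjamini-Hochberg adjustment over all genes and a threshold of 0.05, and each change is a log2 change ± its standard error (SE).

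The receptor gene daf-2 had 434, 427 and 436 CPM in D1 dauers, against 238, 251 and 285 CPM in L3 larvae. The groups did not overlap, and the change was 0.71 ± 0.078 (adjusted p = 7.0e-05). The strain carries the mutant allele, so these counts are of its transcripts. Among the kinase subunits, age-1 had 49.5, 51.8 and 54.6 CPM in dauers, against 37.7, 40.5 and 42.0 CPM in L3 larvae, a change of 0.34 ± 0.077 (adjusted p = 0.00407). The adaptor gene aap-1 differed by 0.17 ± 0.09 and did not pass (adjusted p = 0.11), although with all 54 libraries in 1 fit it did (0.0498). The phosphatase gene daf-18 had 51.5, 46.7 and 53.4 CPM in dauers, against 45.2, 43.4 and 46.0 CPM in L3 larvae, and its change of 0.14 ± 0.077 did not pass (adjusted p = 0.128). Without D1 replicate 2 it did (0.23, adjusted p = 0.0318).

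The kinases downstream went in different directions. The largest rise among them was that of akt-1, with 578, 591 and 597 CPM in D1 dauers, against 199, 200 and 220 CPM in L3 larvae (1.48 ± 0.063, adjusted p = 3.5e-07). Its paralog akt-2 rose by 0.71 ± 0.069 (adjusted p = 3.4e-05) and pdk-1, whose product activates AKT kinases, by 0.55 ± 0.077 (adjusted p = 3.0e-04). The related kinase gene sgk-1 was lower, with 45.8, 49.2 and 50.2 CPM in dauers, against 87.9, 87.6 and 80.4 CPM in L3 larvae (-0.85 ± 0.068, adjusted p = 1.2e-05). Thus the groups were apart in all 3 libraries for akt-1 and, with the opposite sign, for sgk-1.

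At the end of the pathway, daf-16 had 94.7, 81.7 and 91.6 CPM in D1 dauers, against 31.5, 27.9 and 30.9 CPM in L3 larvae, a change of 1.54 ± 0.087 (adjusted p = 1.6e-06). The 14-3-3 gene ftt-2 had 407, 354 and 401 CPM in dauers, against 680, 715 and 635 CPM in L3 larvae, a change of -0.84 ± 0.073 (adjusted p = 1.8e-05). The transcription factor gene was therefore higher in every dauer library, and the gene for its 14-3-3 partner lower. Without L3 replicate 3 the 8 called changes were 0.77 for daf-2, 0.35 for age-1, 1.51 for akt-1, 0.74 for akt-2, 0.46 for pdk-1, -0.92 for sgk-1, 1.55 for daf-16 and -0.90 for ftt-2 (highest adjusted p = 3.2e-04), and aap-1 (0.09, adjusted p = 0.373) and daf-18 (0.14, adjusted p = 0.0928) did not pass.

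Tissue markers differed between the same groups. Body-wall muscle genes (myo-3, unc-54) summed to 9030 to 9670 CPM in D1 dauers, against 13600 to 14500 CPM in L3 larvae, intestine genes (elt-2, ges-1, act-5) to 929 to 955 CPM, against 1820 to 1950 CPM, and pharynx genes (myo-2, pha-4) to 439 to 464 CPM, against 743 to 1090 CPM. The cuticle collagen genes of the hypodermis (dpy-7, rol-6, bli-1) were furthest apart of these lists, with 32.4 to 43.6 CPM in D1 dauers, against 1060 to 1400 CPM in L3 larvae. Germline genes (pgl-1, glh-1, pgl-3) had 270 to 323 CPM, against 181 to 239 CPM, and neuron genes (rab-3, unc-119, unc-31) overlapped with 117 to 124 CPM, against 112 to 118 CPM. The part of these differences in the changes of the members was not tested.

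**Figure D2:**
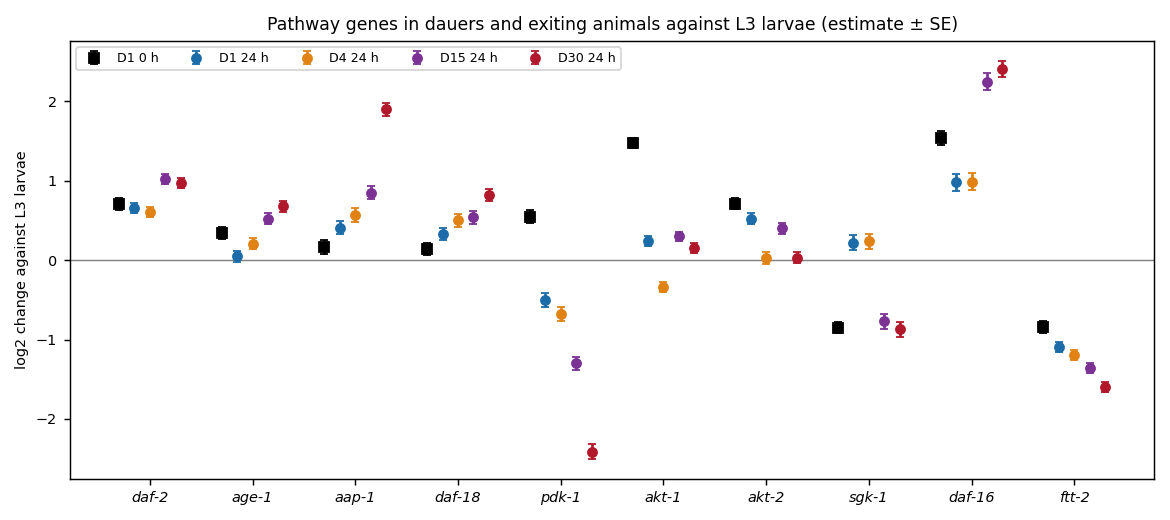
Log2 change (estimate ± SE) of the 10 genes against L3 larvae, for D1 dauers at 0 h (squares) and for animals 24 h into exit from D1, D4, D15 and D30 (circles). daf-16 lies between 0.98 and 2.41 in all 5, and ftt-2 between -1.60 and -0.84.

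Time in dauer was tested as a slope on dauer day over the 12 libraries at 0 h, and the changes are given over the 29 days between D1 and D30. Of the members 4 rose, where 24.9% of 13884 genes did, and 3 fell, where 31.8% did. The median change was 0.15 over the members and -0.09 over all genes. The courses were not straight lines, so the steps between neighbouring days were tested as well.

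For pdk-1 the values were 111, 123 and 122 CPM on D1, 40.8, 45.6 and 44.7 CPM on D4, 29.7, 32.8 and 36 CPM on D15 and 16.6, 14.1 and 14.6 CPM on D30. No library of a later day reached one of an earlier day, and the slope was -2.62 ± 0.321 over 29 days (adjusted p = 3.3e-05). Each step passed the test, with -1.38 ± 0.076 for D4 against D1, -0.47 ± 0.087 for D15 against D4 and -1.11 ± 0.096 for D30 against D15 (adjusted p = 2.4e-13, 6.4e-05 and 1.1e-09). Of the 10 members only pdk-1 fell past the threshold at all 3 steps.

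The other large fall was that of sgk-1, whose course turned. It had 45.8, 49.2 and 50.2 CPM on D1, 73.8, 81.1 and 82.2 CPM on D4, 19, 17.3 and 15.0 CPM on D15 and 9.16, 11.8 and 12.2 CPM on D30. D4 was the highest of the 4 days, with a rise of 0.77 ± 0.082 over D1 (adjusted p = 2.2e-08), and was followed by falls of -2.27 ± 0.094 at D15 (adjusted p = 2.8e-15) and -0.63 ± 0.121 at D30 (adjusted p = 1.2e-04). The slope was -2.74 ± 0.409 (adjusted p = 1.5e-04).

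The adaptor gene aap-1 went the other way and rose at every step. It had 35.3, 32.0 and 31.7 CPM on D1, 42.1, 38.4 and 50.6 CPM on D4, 58.8, 53.4 and 58.0 CPM on D15 and 123, 122 and 124 CPM on D30. No libraries of different days overlapped, and most of the rise came at the last step (1.13 ± 0.069 for D30 against D15, adjusted p = 2.5e-12, after 0.48 ± 0.09 and 0.30 ± 0.082). Over 29 days it amounted to 1.76 ± 0.134 (adjusted p = 7.3e-07). The catalytic subunit gene age-1, with means of 52.0, 60.1, 60.4 and 68.4 CPM over the 4 days, rose by only 0.30 ± 0.106 (adjusted p = 0.0294). That call was lost without any 1 of the 3 D1 libraries (adjusted p = 0.0633 to 0.0776).

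The receptor and the transcription factor gene both had their largest step between D4 and D15. For daf-2 the levels were 434, 427 and 436 CPM on D1, 501, 483 and 476 CPM on D4, 727, 742 and 704 CPM on D15 and 717, 689 and 708 CPM on D30. The step to D15 was 0.52 ± 0.04 (adjusted p = 1.4e-10), while D30 against D15 did not pass (-0.03 ± 0.039, adjusted p = 0.505). On D1 daf-16 had 94.7, 81.7 and 91.6 CPM, on D4 82.7, 71.9 and 65.5 CPM, on D15 202, 216 and 183 CPM and on D30 163, 175 and 166 CPM. D15 and D30 libraries all lay above those of D1 and D4, and the step to D15 was 1.41 ± 0.079 (adjusted p = 6.7e-13). The lower values of daf-16 on D4 and on D30, each against the day before, passed the test (-0.24 ± 0.085 and -0.25 ± 0.069), but the first did not without D1 replicate 1 or D4 replicate 3 (adjusted p = 0.0538 and 0.148), and the second not without D15 replicate 2 or D30 replicate 1 (0.0691 and 0.0627), and neither did with all 54 libraries in 1 fit (0.0818 and 0.0999). Over 29 days daf-2 rose by 0.70 ± 0.162 (adjusted p = 0.00276) and daf-16 by 1.20 ± 0.317 (adjusted p = 0.00648). With the D1 libraries left out the slope of daf-16 no longer passed (adjusted p = 0.0644).

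The AKT genes dipped on D4. The means of akt-1 were 589, 342, 445 and 408 CPM over the 4 days and those of akt-2 161, 125, 180 and 177 CPM. Both fell to D4 (-0.72 ± 0.043 and -0.31 ± 0.052) and rose to D15 (0.33 ± 0.043 and 0.47 ± 0.051), and neither slope over 29 days passed (-0.26 ± 0.201 and 0.31 ± 0.133, adjusted p = 0.282 and 0.0653). With all 54 libraries in 1 fit both did (-0.20 and 0.33, adjusted p = 5.7e-04 and 6.4e-08), and akt-2 also without the D1 libraries (0.45, adjusted p = 0.0235). The lower level of akt-1 on D30 than on D15 (-0.12 ± 0.042) was lost without any 1 of the 6 libraries (adjusted p = 0.0586 to 0.322). The phosphatase gene daf-18 peaked on that day, with means of 50.5, 92.8, 64.3 and 70.4 CPM, a step of 0.94 ± 0.089 to D4 (adjusted p = 3.3e-09) and one of -0.59 ± 0.085 to D15 (adjusted p = 2.3e-06). Its change between D15 and D30 did not pass (0.13 ± 0.083, adjusted p = 0.185), but did without D15 replicate 2 (0.23, adjusted p = 0.0347). The 14-3-3 gene ftt-2 averaged 388, 268, 265 and 221 CPM over the 4 days, and its slope was -0.65 ± 0.145 (adjusted p = 0.00226).

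At the steps, 5 members were higher in D4 than in D1 dauers and 5 lower (36% and 34.1% of all genes), 5 were higher in D15 than in D4 and 3 lower (31.6% and 34.4%), and 2 were higher in D30 than in D15 and 5 lower (28.9% and 28.8%). Because the D4 dauers stood apart by their yolk genes, D15 was also set against D1 in a fit without D4. There 6 members were higher and 4 lower (37.6% and 39.9% of all genes). The changes were 1.16 ± 0.063 for daf-16, 0.78 ± 0.071 for aap-1, 0.75 ± 0.04 for daf-2, 0.34 ± 0.076 for daf-18, 0.22 ± 0.065 for age-1, 0.16 ± 0.047 for akt-2, -0.40 ± 0.041 for akt-1, -0.55 ± 0.052 for ftt-2, -1.50 ± 0.098 for sgk-1 and -1.85 ± 0.072 for pdk-1. Without D4 the slopes of daf-18 (0.49, adjusted p = 0.00436) and akt-1 (-0.52, adjusted p = 0.003) passed as well, and the 7 slopes called with D4 all passed. Tissue markers moved over the same days: body-wall muscle genes summed to 9030 to 9670 CPM on D1 and 462 to 521 CPM on D30, intestine genes to 929 to 955 and 83.2 to 84.9 CPM, hypodermis genes to 32.4 to 43.6 and 0.639 to 0.763 CPM, and neuron genes to 117 to 124 and 195 to 213 CPM. Their part in the slopes was not tested.

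**Figure D3:**
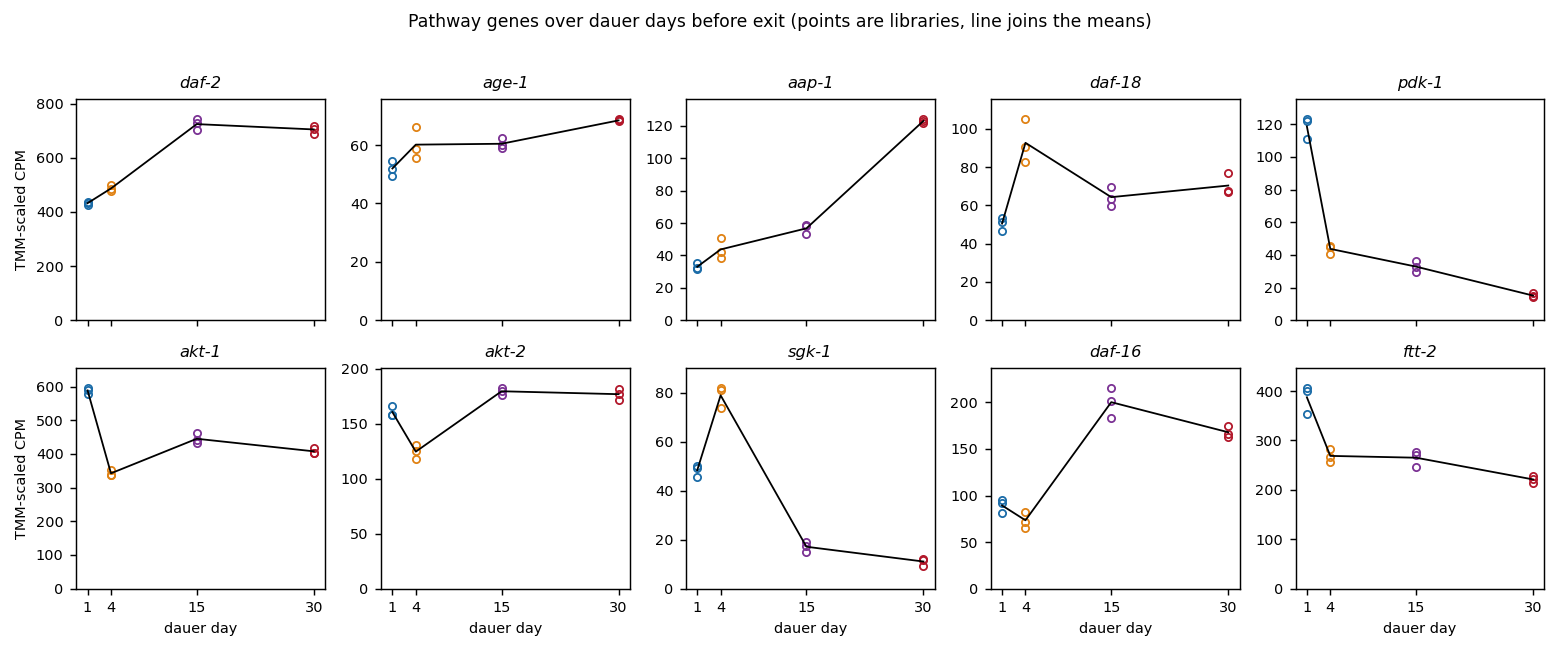
TMM-scaled CPM (linear axes from 0) of the 10 genes on dauer days 1, 4, 15 and 30 at 0 h without UV. Open points are libraries and lines join the means of 3. pdk-1 falls to 15.1 CPM on D30 and aap-1 reaches 123 CPM, while sgk-1 and daf-18 are highest on D4.

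Dauer exit was tested on each dauer day as a slope on exit hour, given over 24 h, and as 6 h against 0 h. Over 24 h 7 of the 10 members changed on D1, where 61.9% of 13729 genes did, 3 on D4 (43.6% of 12607 genes), 4 on D15 (42.3% of 13153 genes) and 5 on D30 (46.7% of 13086 genes). In the first 6 h, 3 rose and 2 fell on D1 (20.8% and 20.7%), 3 and 4 on D4 (23.5% and 22.8%), 2 and 4 on D15 (27.0% and 26.6%) and 1 and 3 on D30 (13.3% and 12.3%).

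Tissue markers also moved over the hours of exit. At 0, 6 and 24 h the medians of the summed intestine genes were 943, 1120 and 1490 CPM on D1, 309, 983 and 961 CPM on D4, 73, 225 and 752 CPM on D15 and 83.7, 131 and 658 CPM on D30. The hypodermis genes had 36.5, 88.2 and 41.5 CPM on D1 and 1.9, 25.3 and 593 CPM on D4, and stayed at or below 1.6 CPM in all libraries of D15 and D30. Body-wall muscle genes had 9370, 7710 and 2420 CPM on D1 and 503, 421 and 408 CPM on D30, and neuron genes 188, 155 and 129 CPM on D15 and 205, 182 and 156 CPM on D30. Thus the intestine list was higher at 24 h than at 0 h on all 4 days, and the hypodermis list differed most between those hours on D4. Their part in the exit results of the members was not tested.

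The clearest rise in exit was that of sgk-1. On D1 it had 45.8, 49.2 and 50.2 CPM at 0 h, 62.4, 54.1 and 59.0 CPM at 6 h and 92.8, 110 and 100 CPM at 24 h. On D15 its means were 17.1, 23.7 and 50.5 CPM, and on D30 11.1, 14.8 and 47.5 CPM. The slopes over 24 h were 1.14 ± 0.076 on D1, 1.61 ± 0.118 on D15 and 2.21 ± 0.129 on D30 (adjusted p = 1.9e-07, 4.0e-06 and 2.6e-08). On D4 it had 73.8, 81.1 and 82.2 CPM at 0 h, 122, 124 and 135 CPM at 6 h and 104, 98 and 103 CPM at 24 h, so that it was higher at 6 h (0.69 ± 0.072, adjusted p = 3.4e-06) while the slope did not pass (0.15 ± 0.226, adjusted p = 0.623). The rise within 6 h passed on all 4 days, but on D30 (0.45 ± 0.151) it was lost without D30 0 h replicate 1 or 2 or D30 6 h replicate 1 or 2 (adjusted p = 0.0538 to 0.196).

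The AKT genes fell in exit. The slopes of akt-1 over 24 h were -1.24 ± 0.095 on D1, -0.61 ± 0.128 on D15 and -0.69 ± 0.066 on D30 (adjusted p = 5.6e-07, 0.00356 and 2.1e-06). The levels at 6 h stood differently on D1 and D4, a difference that was not tested itself. On D1 akt-1 had 578, 591 and 597 CPM at 0 h, 552, 567 and 573 CPM at 6 h and 254, 246 and 246 CPM at 24 h, and on D4 338, 353 and 336 CPM at 0 h, 153, 153 and 177 CPM at 6 h and 158, 162 and 173 CPM at 24 h. The change in the first 6 h was -0.05 ± 0.038 on D1 (adjusted p = 0.283) and -1.08 ± 0.067 on D4 (adjusted p = 2.4e-08), with -0.51 ± 0.052 on D15 and -0.35 ± 0.042 on D30 between them. The slope on D4 (-0.87 ± 0.271) was lost without any 1 of the 6 libraries at 0 and 24 h (adjusted p = 0.0527 to 0.07). Its paralog akt-2 fell within 6 h on D4, D15 and D30 (-0.52 ± 0.074, -0.56 ± 0.058 and -0.39 ± 0.055), and of its slopes that of D30 passed (-0.70 ± 0.082, adjusted p = 1.3e-05). With all 54 libraries in 1 fit those of D1 (-0.26), D4 (-0.20) and D15 (-0.33) passed as well (adjusted p = 4.9e-05, 0.00343 and 4.8e-07). On D1 akt-2 was slightly higher at 6 h (0.15 ± 0.048), a call that was lost without D1 0 h replicate 2 or 3, D1 6 h replicate 3 (adjusted p = 0.0533 to 0.0926) or with DESeq2 (0.0918). Its slope of -0.18 ± 0.081 on D1 passed only without D1 0 h replicate 3 among the libraries left out (adjusted p = 0.0443, against 0.0778).

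The activating kinase gene pdk-1 fell in exit from D1 alone among the 4 slopes. It had 111, 123 and 122 CPM at 0 h, 93.1, 99.8 and 91.2 CPM at 6 h and 56.0, 56.5 and 58.6 CPM at 24 h of D1, a slope of -0.96 ± 0.067 (adjusted p = 2.9e-07). On the later days the slopes were 0.07 ± 0.155, 0.03 ± 0.107 and -0.02 ± 0.144, and none passed (adjusted p = 0.753, 0.825 and 0.942). On D4 pdk-1 was higher at 6 h than at 0 h (0.42 ± 0.086, adjusted p = 0.00118).

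The receptor gene fell in exit from the older dauers. At 0, 6 and 24 h the means of daf-2 were 724, 547 and 528 CPM on D15 and 705, 580 and 512 CPM on D30. Within 6 h it fell on D4 (-0.35 ± 0.048), D15 (-0.35 ± 0.042) and D30 (-0.25 ± 0.039), and over 24 h on D30 (-0.35 ± 0.059, adjusted p = 3.2e-04). On D1 its slope was -0.00 ± 0.052 (adjusted p = 0.981). The slope of daf-2 on D15 (-0.30 ± 0.101, adjusted p = 0.0378) was lost without any 1 of the 6 libraries at 0 and 24 h (adjusted p = 0.0693 to 0.105).

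The levels of daf-16 fell in exit from D1, with 94.7, 81.7 and 91.6 CPM at 0 h and 55.9, 62.8 and 63.0 CPM at 24 h (slope -0.47 ± 0.077, adjusted p = 2.8e-04). On D30 they were 163, 175 and 166 CPM at 0 h and 146, 176 and 165 CPM at 24 h, and the slope was 0.01 ± 0.062 (adjusted p = 0.9). The libraries of 0 and 24 h were apart on D1 and overlapped on D30. The slope of daf-16 on D15 (-0.34 ± 0.107) was lost without D15 0 h replicate 1 or 2 or D15 24 h replicate 1 (adjusted p = 0.0608, 0.0621 and 0.127). Within 6 h daf-16 was higher on D4 (0.42 ± 0.119) and lower on D1 (-0.19 ± 0.064) and D15 (-0.25 ± 0.078). The first was lost without D4 0 h replicate 3 or D4 6 h replicate 3 (0.0509 and 0.0683), and the second without D1 0 h replicate 1 or 3 or D1 6 h replicate 3 (0.0725 to 0.113), with DESeq2 (0.0651) and with all 54 libraries in 1 fit (0.316). In that fit D15 did not pass either (-0.31, adjusted p = 0.0545).

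Changes of the lipid kinase and phosphatase genes in exit were small. The slopes of age-1 were -0.26 ± 0.085 on D1 and -0.37 ± 0.111 on D4, those of daf-18 0.26 ± 0.087 on D1, -0.48 ± 0.142 on D4 and 0.27 ± 0.08 on D30, and that of ftt-2 -0.20 ± 0.066 on D1. Each of these 6 calls was lost when single libraries were left out. For age-1 this was D1 24 h replicate 1 (adjusted p = 0.12), and D4 0 h replicate 1 or any D4 24 h library (0.0548 to 0.096). For daf-18 it was D1 24 h replicate 1 or 3 (0.0778 and 0.0834), D4 0 h replicate 3 or D4 24 h replicate 1 or 3 (0.0507 to 0.0882) and D30 24 h replicate 2 (0.0688), and for ftt-2 D1 0 h replicate 1 or D1 24 h replicate 1 or 3 (0.0534 to 0.122). No slope of aap-1 passed (-0.12 to 0.23 on the log2 scale), and that of D1 did without D1 6 h replicate 1 (0.27, adjusted p = 0.0153).

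Smaller calls within 6 h were those of daf-18 on D4 (-0.38 ± 0.11), aap-1 on D1 (0.28 ± 0.082), pdk-1 on D1 (-0.32 ± 0.054) and ftt-2 on D15 (0.16 ± 0.056). The call of daf-18 was lost without D4 0 h replicate 3 or D4 6 h replicate 1 or 3 (adjusted p = 0.0565 to 0.0716), that of aap-1 without D1 0 h replicate 3 or D1 6 h replicate 1 (0.0625 and 0.0662), and that of ftt-2 without 7 of the 9 libraries in turn (0.0506 to 0.282). On D4 aap-1 did not pass at 6 h (-0.32 ± 0.134, adjusted p = 0.0621) but did without replicate 2 of 0 h or of 6 h (0.0333 and 0.0353), and ftt-2 did without D4 6 h replicate 1 (0.22, adjusted p = 0.0241).

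Whether the exit slope of a gene differed between the 4 dauer days was tested with an interaction over 36 libraries, which 64.2% of 14975 genes passed. Of the members it passed for sgk-1 (adjusted p = 5.1e-08), pdk-1 (2.6e-06), daf-18 (1.8e-04), ftt-2 (0.0205) and age-1 (0.0214), while that of daf-16 was 0.0622 and that of akt-1 0.0915. For sgk-1 the slopes ran 1.14, 0.15, 1.61 and 2.21 over D1, D4, D15 and D30, and for pdk-1 -0.96, 0.07, 0.03 and -0.02. Without the D4 libraries those of sgk-1 and pdk-1 passed (1.3e-05 and 2.6e-06), that of daf-18 did not (0.41), and those of daf-16 (0.0014), akt-1 (9.4e-04) and daf-2 (0.0306, against 0.0706 with D4) did. RLE scaling lost age-1 (0.0609) and gained daf-2 and akt-2 (0.024 and 0.0226). Single libraries also moved calls: ftt-2 was lost without D1 24 h replicate 3 (0.0893) and age-1 without D30 24 h replicate 2 (0.0557). Calls were gained for daf-16 without D4 0 h replicate 2 or 3, D4 6 h replicate 3 or D30 24 h replicate 1 (0.014 to 0.0483), for akt-1 without D4 6 h replicate 1 or 2 (0.0492 and 0.0459), for daf-2 without D4 0 h replicate 1 or D15 6 h replicate 2 (0.0443 and 0.0464) and for akt-2 without D4 0 h replicate 2 (0.0375, against 0.0698).

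**Figure D4:**
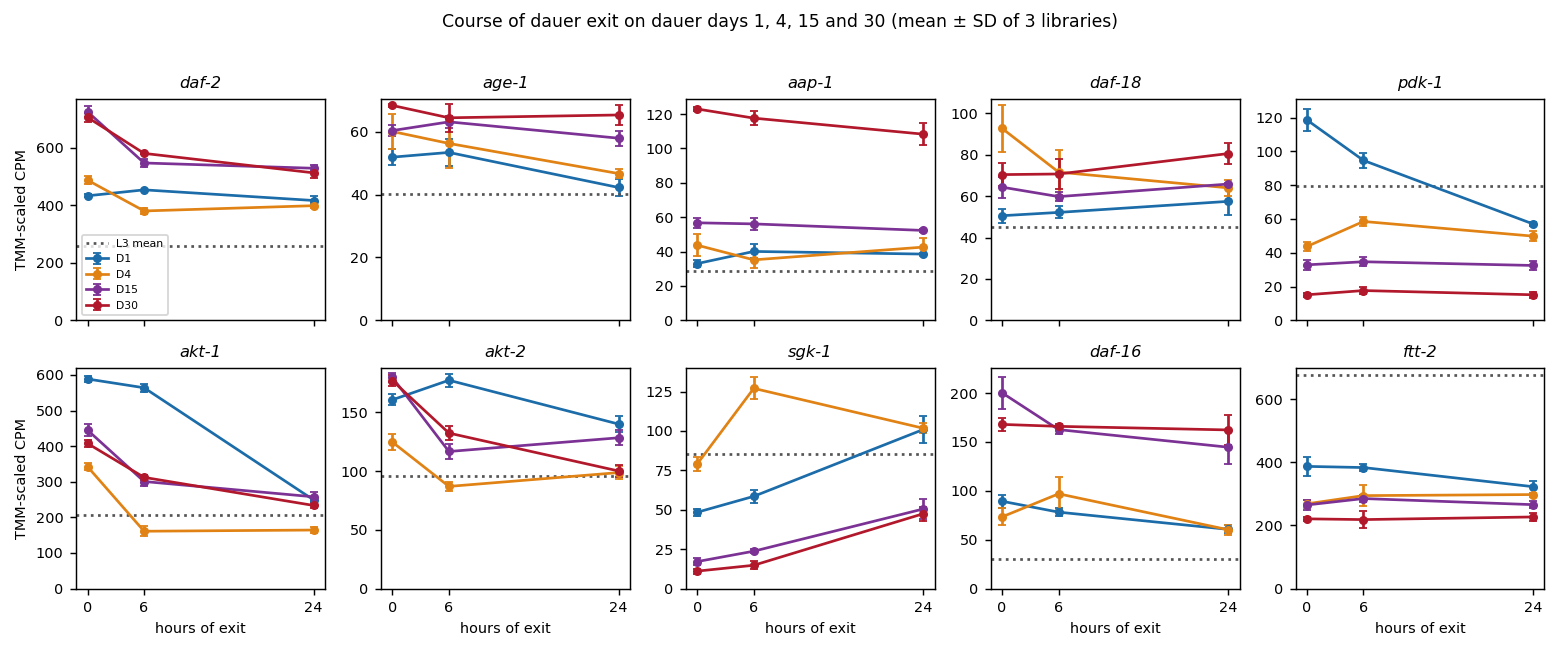
Mean TMM-scaled CPM ± SD (3 libraries each, linear axes from 0) of the 10 genes at 0, 6 and 24 h of exit from D1, D4, D15 and D30 dauers, with the L3 mean dotted. sgk-1 reaches 101, 102, 50.5 and 47.5 CPM at 24 h on the 4 days, and akt-1 falls to 249, 164, 257 and 234 CPM.

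Animals 24 h into exit were set against L3 larvae, the stage the study used as reference, for each dauer day. The 4 comparisons share the L3 libraries with each other and with that of D1 dauers. Of the members 7 were higher and 2 lower after D1 (33.8% and 35.7% of 14283 genes), 6 and 3 after D4 (30.9% and 32.2%), 7 and 3 after D15 (38.1% and 37.6%) and 6 and 3 after D30 (40.7% and 39.6%). The median changes of the members were 0.29, 0.22, 0.46 and 0.42, and those of all genes -0.01, 0.00, 0.04 and 0.05. Without L3 replicate 3 the counts were 6 and 2 after D1 and 5 and 3 after D4, sgk-1 being the call lost on both days, and the same as with it after D15 and D30. Over all 50 member comparisons with L3 larvae leaving it out moved no log2 change by more than 0.09. Of the tissue markers, the hypodermis genes summed to 28.1 to 48.1 CPM after D1, 528 to 605 CPM after D4, 0.67 to 1.6 CPM after D15 and 0.661 to 0.929 CPM after D30, against 1060 to 1400 CPM in L3 larvae, and body-wall muscle genes to at most 2440 CPM at 24 h, against at least 13600 CPM. Their part was not tested.

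The transcription factor gene daf-16 had 55.9, 62.8 and 63.0 CPM 24 h after D1, 64.1, 54.5 and 61.9 CPM after D4, 125, 156 and 153 CPM after D15 and 146, 176 and 165 CPM after D30, against 31.5, 27.9 and 30.9 CPM in L3 larvae. Every exiting library was above every L3 library, and the changes were 0.98 ± 0.104, 0.99 ± 0.109, 2.25 ± 0.103 and 2.41 ± 0.103 (adjusted p = 5.5e-07, 1.3e-06, 2.2e-11 and 5.8e-12). Leaving out L3 replicate 3 gave 1.01, 1.01, 2.27 and 2.42. The 14-3-3 gene ftt-2 stayed below L3 larvae, with means of 323, 298, 266 and 227 CPM, against 677 CPM in L3 larvae (-1.09 ± 0.061, -1.19 ± 0.062, -1.36 ± 0.062 and -1.60 ± 0.062, and without L3 replicate 3 -1.13, -1.24, -1.41 and -1.65). The receptor gene daf-2 was above L3 larvae after every day (0.66 ± 0.064, 0.61 ± 0.064, 1.02 ± 0.064 and 0.97 ± 0.064, and without that library 0.75, 0.69, 1.09 and 1.04).

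As for ftt-2, the estimates of aap-1, pdk-1, age-1 and daf-18 lay further from L3 larvae on each later dauer day. Those of daf-16 had this order too, nearly level after D1 and D4 (0.98 and 0.99). The differences between days were not tested themselves, and how many of all genes have such an order was not counted. For aap-1 the means were 38.5, 42.6, 52.3 and 108 CPM, against 28.6 CPM in L3 larvae (0.41 ± 0.083, 0.57 ± 0.088, 0.85 ± 0.081 and 1.90 ± 0.08). For pdk-1 they were 57.0, 49.9, 32.5 and 15.1 CPM, against 79.3 CPM in L3 larvae (-0.50 ± 0.084, -0.68 ± 0.089, -1.30 ± 0.086 and -2.41 ± 0.092). The changes of age-1 (0.05, 0.21, 0.52 and 0.68) and daf-18 (0.33, 0.50, 0.54 and 0.82) had the same order, with that of age-1 after D1 not past the threshold (adjusted p = 0.528). Leaving out L3 replicate 3 gave 0.34, 0.50, 0.78 and 1.83 for aap-1, -0.56, -0.74, -1.37 and -2.48 for pdk-1, 0.09, 0.24, 0.55 and 0.71 for age-1 and 0.35, 0.52, 0.55 and 0.83 for daf-18. The call of age-1 after D4 was lost without D4 24 h replicate 1 or L3 replicate 1 or 2 (adjusted p = 0.0531 to 0.11) with DESeq2 (0.0527) and without the filter (0.151).

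For kinases acting on DAF-16 the estimates differed in sign between days. After D1 and D4 sgk-1 was 0.22 ± 0.092 and 0.24 ± 0.095 above L3 larvae, and after D15 and D30 -0.77 ± 0.094 and -0.87 ± 0.094 below (adjusted p = 0.0433, 0.0385, 2.1e-06 and 4.2e-07). Its means were 101, 102, 50.5 and 47.5 CPM, against 85.3 CPM in L3 larvae. Both higher values were lost without any 1 of the 3 L3 libraries, without D4 24 h replicate 1 or 3 or D30 24 h replicate 2, and that after D1 also without D1 24 h replicate 2 or 3 (adjusted p = 0.0507 to 0.18), and both without the filter on low counts (0.0974 and 0.138). For akt-1 the changes were 0.24 ± 0.06, -0.34 ± 0.062, 0.30 ± 0.06 and 0.15 ± 0.06, with means of 249, 164, 257 and 234 CPM, against 206 CPM in L3 larvae. The last was lost without D30 24 h replicate 3 or L3 replicate 1 or 2 (adjusted p = 0.0687 to 0.149), with RLE scaling (0.0521) and without the filter (0.112). The paralog akt-2 was higher after D1 and D15 (0.52 ± 0.071 and 0.40 ± 0.07) and did not pass after D4 and D30 (0.03 in each, adjusted p = 0.758 and 0.664). Without L3 replicate 3 the changes were 0.18, 0.20, -0.82 and -0.91 for sgk-1 (adjusted p of the first pair 0.115 and 0.105), 0.30, -0.29, 0.35 and 0.20 for akt-1 and 0.58, 0.08, 0.45 and 0.08 for akt-2.

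UV-exposed animals were set against unexposed ones of the same day and hour. In D1 animals at 6 h, 3 members were higher and 2 lower after UV (14.4% and 13.4% of 13463 genes), and at 24 h 2 were higher and 8 did not pass (5.54% of 13113 genes were higher and 6.13% lower). In D4 dauers at 0 h, 2 were higher and 2 lower (18.1% and 14.4% of 11420 genes). The D4 libraries at 6 and 24 h held only 1141284 to 4524995 counts. In D4 animals at 6 and 24 h edgeR's quasi-likelihood test called 0 of 10, where it called 0.936% of 10896 genes higher and 0.441% lower at 6 h, and 0.126% of 11936 genes higher and 0.00838% lower at 24 h. At an unadjusted p under 0.05 there were 1 and 4 members, where 1268 of 10896 and 1278 of 11936 genes were, and DESeq2 called 0 at 6 h and 1 at 24 h, ftt-2 (0.37, adjusted p = 0.0464, against 0.123 with edgeR and 0.0293 with edgeR without the filter on low counts).

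In D1 animals at 6 h of exit, daf-2 had 326, 355 and 308 CPM after UV, against 453 CPM in each of the 3 unexposed libraries (-0.43 ± 0.055, adjusted p = 1.5e-04). The AKT genes moved apart: akt-2 had 230, 220 and 225 CPM after UV, against 177, 172 and 183 CPM without (0.37 ± 0.044, adjusted p = 9.3e-05), and akt-1 had 498, 470 and 464 CPM after UV, against 552, 567 and 573 CPM without (-0.22 ± 0.041, adjusted p = 0.00234). Libraries with and without UV did not overlap for any of these 3 genes. The adaptor gene aap-1 was higher, with 49.6, 52.7 and 48.2 CPM after UV, against 44.5, 39.3 and 36.4 CPM without (0.35 ± 0.082, adjusted p = 0.00772). The phosphatase gene daf-18 was 0.24 ± 0.067 higher, a call lost without D1 6 h replicate 2 or UV replicate 3 (adjusted p = 0.0884 and 0.058) and with DESeq2 (0.0542). Changes of daf-16 (0.21 ± 0.11) and ftt-2 (-0.18 ± 0.078) did not pass, but did without UV replicate 3 (0.31, adjusted p = 0.0386) and without UV replicate 2 (-0.29, adjusted p = 3.5e-04).

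At 24 h of exit from D1, pdk-1 had 68.5, 65.1 and 69.4 CPM after UV, against 56.0, 56.5 and 58.6 CPM without (0.24 ± 0.058, adjusted p = 0.0202), and akt-1 had 299, 272 and 272 CPM after UV, against 254, 246 and 246 CPM without (0.17 ± 0.047, adjusted p = 0.037). The groups did not overlap. The call of pdk-1 was lost without D1 24 h replicate 1 or UV replicate 1 or 3 (adjusted p = 0.0636 to 0.0728) and with DESeq2 (0.0857), and that of akt-1 without any D1 24 h library or UV replicate 1 or 2 (0.0654 to 0.138).

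In D4 dauers at 0 h, pdk-1 had 84.1, 69.1 and 69.2 CPM after UV, against 40.8, 45.6 and 44.7 CPM without, a change of 0.83 ± 0.125 (adjusted p = 2.4e-04). The kinase gene akt-2 was higher as well, with 166, 145 and 150 CPM after UV, against 118, 131 and 125 CPM without (0.36 ± 0.091, adjusted p = 0.00833). Lower values after UV were those of akt-1, with 274, 235 and 276 CPM after UV, against 338, 353 and 336 CPM without (-0.33 ± 0.08, adjusted p = 0.00744), and of daf-16, with 39.4, 62.5 and 48.2 CPM after UV, against 82.7, 71.9 and 65.5 CPM without (-0.51 ± 0.166, adjusted p = 0.0323). The groups were apart for all 4 genes, but the call of daf-16 was lost without D4 replicate 1 or UV replicate 1 or 3 (adjusted p = 0.0593, 0.211 and 0.0968) and with DESeq2 (0.0538). Calls were gained for age-1 (-0.40 ± 0.158, adjusted p = 0.0692) without D4 replicate 2 or UV replicate 3 (0.0402 and 0.0273) and for aap-1 (0.37 ± 0.17, adjusted p = 0.119) without D4 replicate 3 or UV replicate 1 (0.047 and 0.0467).

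This comparison joins the shallowest libraries of the series with the 3 that stand apart by yolk genes. Totals were 670302 to 856794 counts after UV, against 4069749 to 5978390 without. Yolk genes summed to 0 to 4.94 CPM after UV, against 511 to 2060 CPM without, dauer cuticle genes to 701 to 1290 CPM, against 10.6 to 35.3 CPM, and germline genes to 163 to 178 CPM, against 331 to 346 CPM. Intestine genes had 507 to 568 CPM after UV, against 290 to 324 CPM without. Body-wall muscle genes had 1500 to 2090 CPM, against 928 to 1110 CPM, and pharynx genes were lower, with 673 to 749 CPM, against 857 to 908 CPM. The part of depth and of these lists in the differences was not tested. In D4 animals at 6 h, daf-16 had 82.4, 96 and 202 CPM after UV, against 90.6, 84.3 and 116 CPM without, so that UV replicate 3 lay far above the others. That library held 1141284 counts, against 2257260 and 2220626 in UV replicates 1 and 2.

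Whether the UV difference of D4 animals changed with exit hour was tested by an interaction, which 22.8% of 12780 genes passed. It passed for akt-1 (adjusted p = 0.00513), pdk-1 (0.0364) and age-1 (0.0441). With RLE scaling (0.0822) and with DESeq2 (0.0975) age-1 did not pass. The UV differences at 0, 6 and 24 h were -0.33, 0.11 and 0.10 for akt-1, 0.83, 0.06 and 0.26 for pdk-1 and -0.40, -0.03 and 0.17 for age-1. The call of akt-1 held without any 1 library (highest adjusted p = 0.0381). That of pdk-1 was lost without D4 0 h replicate 1, D4 0 h UV replicate 1 or 3, any D4 6 h library or D4 6 h UV replicate 1 or 2 (0.0509 to 0.138), and that of age-1 without any D4 0 h, D4 24 h or D4 24 h UV library, D4 0 h UV replicate 1 or 2 or D4 6 h UV replicate 1 or 3 (0.0531 to 0.231). Without D4 6 h UV replicate 3 the test passed for daf-16 (0.0217, against 0.142) and ftt-2 (0.0409, against 0.229), and for daf-16 also without D4 6 h UV replicate 1 (0.0478).

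**Figure D5:**
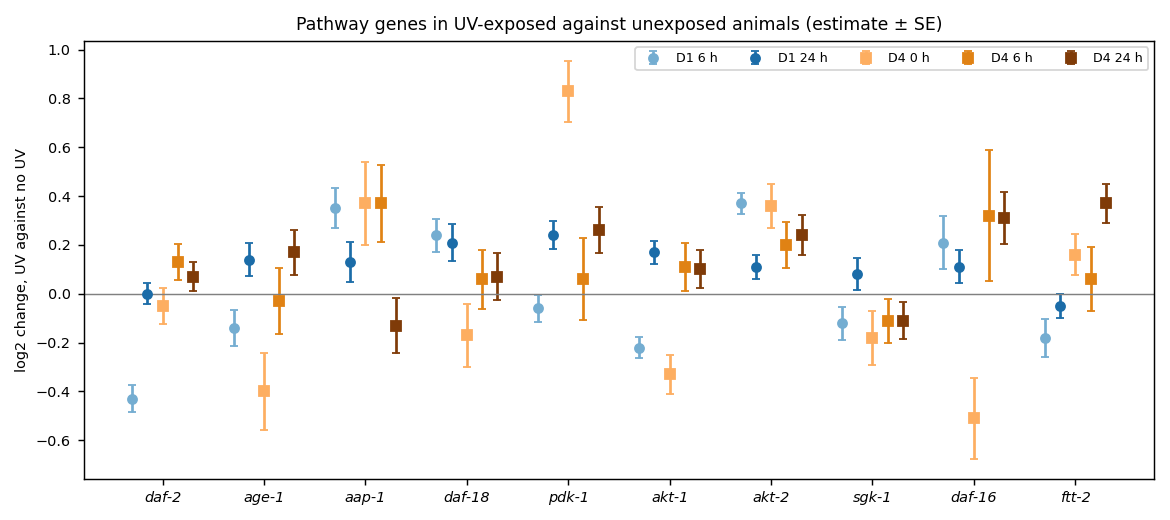
Log2 change (estimate ± SE) of the 10 genes in UV-exposed against unexposed animals of the same day and hour, for D1 at 6 and 24 h (circles) and D4 at 0, 6 and 24 h (squares). pdk-1 on D4 at 0 h (0.83) is the largest change, and daf-2 on D1 at 6 h (-0.43) and daf-16 on D4 at 0 h (-0.51) the largest falls past the threshold.

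The patterns of the members over the 18 condition means of log2 CPM are given as a description. The closest pairs among the 45 were age-1 with daf-16 (Pearson r = 0.897), aap-1 with pdk-1 (r = -0.878), akt-1 with akt-2 (r = 0.848) and daf-2 with daf-16 (r = 0.812). Of the 10835 other genes with a symbol and at least 5 CPM on average, those most like daf-2 were C06G3.3 (r = 0.951), trk-1 (r = 0.945) and K10D3.6 (r = 0.938), and those most like daf-16 were C18A11.2 (r = 0.955), lin-28 (r = 0.948) and Y110A2AL.4 (r = 0.944). All 6 had their lowest condition mean in L3 larvae, as daf-2 and daf-16 had. The condition means share their libraries' depth and scaling.

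Genes known from daf-2 mutant work to be raised by DAF-16 were described next, from a list of 18 of which 17 had a row by symbol. In D1 dauers against L3 larvae 12 of 17 were higher and 5 lower (38.7% and 36.9% of all genes), with a median log2 change of 1.47 against 0.04 over all genes. The manganese superoxide dismutase gene sod-3 averaged 210 CPM in D1 dauers and 9.93 CPM in L3 larvae, and the metallothionein gene mtl-1 642 CPM in D1 dauers and 1.73 CPM in L3 larvae. The gene hsp-12.6, which encodes a small heat shock protein, averaged 342 CPM in D1 dauers, with 2 counts in all 3 L3 libraries together. The gene scl-1 had 0 counts in L3 larvae and was at least 545-fold higher in dauers, from a floor of 3 counts over the group. The aquaporin gene aqp-1 was lower, with 11.3 CPM in dauers and 76.2 CPM in L3 larvae (-2.78 ± 0.135, adjusted p = 6.8e-07). The counts without L3 replicate 3 were again 12 and 5 (41.1% and 38.3% of all genes), with a median of 1.31. The change of mtl-1 was then 9.38, against 8.47 with that library.

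Over the 29 days in dauer 10 of these 17 genes fell and 2 rose (31.8% and 24.9% of all genes), with a median of -2.58 against -0.09. The catalase gene ctl-1 averaged 399, 191, 172 and 53.1 CPM over the 4 dauer days (-2.58 ± 0.263, adjusted p = 7.7e-06), and the desaturase gene fat-5 139, 40.6, 2.54 and 1.25 CPM (adjusted p = 1.8e-05). The lysozyme gene lys-7 had 296, 146, 2.46 and 0.398 CPM (adjusted p = 2.6e-06). The small heat shock gene sip-1 rose, with 66.0, 91.4, 197 and 207 CPM (1.61 ± 0.27, adjusted p = 3.3e-04). Over the same days the intestine markers summed to 929 to 955 CPM on D1 and 83.2 to 84.9 CPM on D30, and their part in the falls was not tested. At the last step icl-1, the glyoxylate cycle gene, had 19.3 CPM on D30, against 353 CPM on D15 (-4.18 ± 0.077), sod-3 11.8 CPM on D30, against 80.8 CPM on D15, and nnt-1, the transhydrogenase gene, was higher on D30 than on D15 (1.12 ± 0.07, adjusted p = 4.3e-12).

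In exit the list split. Over 24 h 8 genes of 17 rose and 8 fell on D1 (61.9% of all genes changed), 1 and 7 of 16 on D4 (43.6%), 6 and 5 of 16 on D15 (42.3%) and 6 and 5 of 15 on D30 (46.7%), with medians of 0.11, -0.57, 0.17 and -0.08, against -0.01, -0.04, 0.02 and 0.02 over all genes. On D1 icl-1 rose by 2.31 ± 0.072, aqp-1 by 2.22 ± 0.14 and fat-5 by 1.21 ± 0.081, while ctl-1 fell (-1.54 ± 0.075). On D4 sod-3 (-3.29 ± 0.223), hsp-12.6 (-4.59 ± 0.464) and hil-1, a linker histone gene (-1.96 ± 0.177), fell. On D30 fat-5 rose by 4.72 ± 0.212 and icl-1 by 4.59 ± 0.303, and hil-1 fell (-0.70 ± 0.05).

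At 24 h of exit against L3 larvae 10 of 17 were higher and 2 lower after D1 (33.8% and 35.7% of all genes), 9 and 4 after D4 (30.9% and 32.2%), 8 and 4 after D15 (38.1% and 37.6%) and 7 and 8 after D30 (40.7% and 39.6%), with medians of 0.84, 0.65, 0.03 and -0.21 and, for D4, 0.35 with genes under 3 counts in a group at their bound. The counts without L3 replicate 3 were 10 and 2, 9 and 4, 8 and 5 and 7 and 8, with medians of 0.93, 0.53, 0.00 and 0.00. The gene hil-1 had 135 CPM after D1 and 361 CPM after D15, against 4.15 CPM in L3 larvae, and mtl-1 151 and 394 CPM, against 1.73 CPM in L3 larvae. After D30 sip-1 had 182 CPM, against 37.7 CPM in L3 larvae (2.25 ± 0.077), and lys-7 1.56 CPM, against 194 CPM in L3 larvae (-6.98 ± 0.308). In UV-exposed D4 dauers at 0 h 10 of 16 were higher and 2 lower than in unexposed ones (18.1% and 14.4% of all genes), with a median of 0.56 against -0.04. Here the shallowest libraries are set against those with the yolk reads. Intestine markers also differed, with 507 to 568 CPM after UV, against 290 to 324 CPM without. The part of these differences in the changes of the list was not tested. Among them fat-5 had 175 CPM after UV, against 40.6 CPM without (2.15 ± 0.138), icl-1 873 CPM after UV, against 450 CPM without (1.02 ± 0.086), and mtl-1 rose by 0.89 ± 0.073, while hil-1 was lower (-0.39 ± 0.095). At the other UV times the list had 1 higher and 4 lower of 17 (D1 6 h, 14.4% and 13.4% of all genes), 4 and 1 of 17 (D1 24 h, 5.54% and 6.13%), 4 higher of 15 (D4 6 h, 0.936%, among them mtl-1 with 0.72 ± 0.071 and ftn-1, a ferritin gene, with 0.80 ± 0.123) and 1 higher of 16 (D4 24 h, 0.126%, icl-1 with 0.38 ± 0.046).

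Of 8 genes known to be lowered by DAF-16, most are named dod. Several had under 3 counts in whole groups, so levels are given beside the counts of calls. In D1 dauers against L3 larvae 2 of 6 tested were higher and 2 lower (38.7% and 36.9% of all genes). The median was 0.38 against 0.04 over all genes, and without L3 replicate 3 the counts were 4 and 2 (41.1% and 38.3%). In UV-exposed D4 dauers at 0 h 4 of 5 were higher than in unexposed ones and 1, dod-23, lower (18.1% and 14.4%). The median there was 1.65 against -0.04. That comparison again sets the shallowest libraries against those with the yolk reads, and the part of this was not tested. Over the 29 days 6 of 7 fell and 0 rose (31.8% and 24.9%). Over the 4 days at 0 h dod-19 averaged 578, 238, 4.1 and 36.9 CPM, and dod-22 61.6, 9.33, 0 and 0 CPM. The gene dod-23 went the other way from D1 to D4 (5.16 ± 0.659, adjusted p = 4.0e-07). It had 140 counts over the D4 dauers and 1 over the D15 dauers. At 24 h of exit dod-19 had 203 CPM after D15 and 252 CPM after D30, and dod-22 43.8 and 5.11 CPM. Against L3 larvae at 24 h of exit, 4 of 7 were higher and 2 lower after D1 (33.8% and 35.7% of all genes). After D4 they were 3 and 2 (30.9% and 32.2%), after D15 1 and 6 (38.1% and 37.6%) and after D30 0 and 7 (40.7% and 39.6%). Without L3 replicate 3 these counts were 4 and 1, 4 and 2, 1 and 6, and 0 and 7. The insulin-like peptide gene ins-7 stayed at or below 4.16 CPM on average at 0 and 24 h of all 4 days and in L3 larvae. Its changes against L3 larvae at these low levels were 2.39, 1.79, -2.18 and -2.24.

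Regulators that act on the pathway were read from a list of 21 genes, all in the table. In D1 dauers against L3 larvae 5 of the 17 tested were higher and 7 lower (38.7% and 36.9% of all genes). The median was -0.08 against 0.04, and without L3 replicate 3 the counts were 5 and 8 (41.1% and 38.3%). The gene ist-1, which encodes an insulin receptor substrate, was higher with 150 CPM in dauers, against 69.9 CPM in L3 larvae (1.07 ± 0.075), and par-5, the other 14-3-3 gene, lower with 553 CPM in dauers, against 896 CPM in L3 larvae (-0.73 ± 0.055). Over the 29 days 10 of 19 rose and 1 fell (24.9% and 31.8% of all genes), with a median of 0.64 against -0.09. Here par-5 rose by 1.08 ± 0.142, with means of 553, 557, 939 and 1110 CPM, while ftt-2 fell. The 2 genes of the 14-3-3 family had opposite slopes. The deubiquitinase gene math-33 rose by 0.67 ± 0.092, eak-3 had means of 0.477, 0.535, 4.65 and 12.7 CPM, and eak-7 fell (-0.63 ± 0.202).

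At the steps 11 of 19 regulators were higher and 2 lower in D4 than in D1 dauers (36% and 34.1% of all genes), 12 and 4 in D15 than in D4 (31.6% and 34.4%), and 6 and 6 in D30 than in D15 (28.9% and 28.8%). The methyltransferase gene prmt-1 had 759 CPM on D4, against 226 CPM on D1 (1.81 ± 0.044), and the acetyltransferase gene cbp-1 1110 CPM on D15, against 682 CPM on D4 (0.65 ± 0.039). At D30 the sirtuin gene sir-2.1 had 125 CPM, against 66.3 CPM on D15 (0.92 ± 0.064). In exit 7 rose and 4 fell on D1 (of 18, where 61.9% of all genes changed), 1 and 6 on D4 (of 18, 43.6%), 1 and 8 on D15 (of 20, 42.3%) and 3 and 9 on D30 (of 19, 46.7%). On D30 par-5 (-0.80 ± 0.067), ist-1 (-0.63 ± 0.057) and the kinase gene cst-1 (-0.84 ± 0.061) fell. At 24 h of exit against L3 larvae 6 regulators of 20 were higher and 6 lower after D1 (33.8% and 35.7% of all genes), 7 and 7 after D4 (30.9% and 32.2%), 10 and 6 after D15 (38.1% and 37.6%) and 11 and 7 after D30 (40.7% and 39.6%). Fitted without L3 replicate 3 they were 5 and 6 after D1 and 6 and 6 after D4, and as with it after D15 and D30. The gene rict-1, whose product sits in the TOR complex that acts on SGK-1, was 0.51 ± 0.07 above L3 larvae after D1 and 0.81 ± 0.069 after D15. After UV, 2 regulators were higher and 2 lower on D1 at 6 h (of 18, 14.4% and 13.4% of all genes), 1 was higher and 0 lower at 24 h (of 17, 5.54% and 6.13%), and 1 was higher and 5 lower on D4 at 0 h (of 18, 18.1% and 14.4%), among them prmt-1 (-0.52 ± 0.079). The D4 libraries at 0 h differed in depth and yolk reads as well, and the part of this was not tested.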

How the data were processed

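The authors trimmed reads with fastp, quantified them with Salmon (GC bias correction, WormBase ParaSite WBPS15 transcripts, genome as decoy) and summed transcripts to genes with tximport. The deposited table holds estimated counts per gene for 54 libraries, not scaled for library size or length. Between 8.49% and 64.7% of a library's values had decimals, and all were rounded. Of 19909 genes 19897 matched WBcel235 release 115 by identifier, and 321 had no count in any library. Totals were 670302 to 12952656, lowest in the D4 UV dauers.

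Fits used edgeR 4.0.16 (with limma 3.58.1) and, as an alternative, DESeq2 1.42.0, under R 4.3.3. A gene entered a comparison if 3 or more of its libraries held 10 or more counts, and fits used TMM scaling, glmQLFit and glmQLFTest, with Benjamini-Hochberg adjustment over all genes tested. Slopes took dauer day or exit hour as a continuous variable. Libraries were grouped by their labels. The study calls the 3 libraries of a condition biological replicates, and p-values of comparisons between groups measure the spread between them. In fits of a slope and in the interaction of slopes, departure from a straight line also enters the error. For akt-1 on D4 the SE was 0.271 for the exit slope and 0.067 for 6 h against 0 h. The fits were tested on simulated data.

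All 10 members are named in every comparison. For daf-2 and daf-16 the 3 genes with the highest correlation are named. From each list up to 3 genes with the smallest p in the main direction and 1 in the other were picked, and not all are named. Further genes of the lists, such as sod-3 and scl-1 in D1 dauers against L3 larvae, are given outside these picks for their levels. The members and lists were chosen with earlier results of these data known. Alternatives were RLE scaling, no filter, DESeq2, a replicate block, a single fit over the 54 libraries, leaving out each library in turn, and for dauer aging log2 of the day or D1, D30 or D4 left out. Leaving out D4, D15 against D1, the UV counts by day and the lists without L3 replicate 3 were chosen after seeing the data.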

Additional observations from a re-analysis of the deposited data

Results flagged for a closer look

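The change in exit differed between dauer days 1, 4, 15 and 30 by the interaction test of edgeR for sgk-1 (adjusted p = 5.1e-08), pdk-1 (2.6e-06), daf-18 (1.8e-04), ftt-2 (0.0205) and age-1 (0.0214). Of all genes 64.2% passed this test. The call of daf-18 was lost without the D4 libraries (0.41) and that of ftt-2 without D1 24 h replicate 3 (0.0893). That of age-1 was lost with RLE scaling (0.0609) and without D30 24 h replicate 2 (0.0557). The slope of sgk-1 was lowest on D4 (0.15) and highest on D30 (2.21), and pdk-1 fell on D1 (-0.96). For daf-18 the slopes were 0.26, -0.48, 0.14 and 0.27, for ftt-2 -0.20, 0.12, 0.05 and 0.11, and for age-1 -0.26, -0.37, -0.01 and 0.02. The difference after UV changed with exit hour on D4 for akt-1 (adjusted p = 0.00513), pdk-1 (0.0364) and age-1 (0.0441), where 22.8% of all genes passed. The calls of pdk-1 and age-1 were lost when single libraries were left out, and that of age-1 also with RLE scaling and with DESeq2.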

How the results depend on the processing

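No member reversed direction among the calls of any alternative. Of 240 single member results, RLE scaling lost 3 calls and gained 2, while 233 kept their side of the threshold without the filter, 229 with DESeq2 and 212 with all 54 libraries in 1 fit, and 2553 of 2700 did with a library left out. The exit slope by dauer day was called for 5 members (64.2% of all genes). DESeq2 called it for 8 and 1 fit of 54 libraries for 9, with shares of all genes not given here. The UV difference by exit hour was called for 3 members (22.8% of all genes), for 2 with RLE scaling or with DESeq2, and for 5 with 1 fit of 54 libraries. With a library left out it was called for 1 to 4 (1 without D4 0 h replicate 1 or D4 0 h UV replicate 1). Replicate numbers did not pair the samples: over 21 pairs of groups the correlations of deviations between same-numbered libraries ran from -0.134 to 0.0896. With the replicate block 232 of 240 results kept their side. Calls went from 19 to 15 over the exit slopes of 40 tests, from 37 to 35 against L3 larvae, from 7 to 6 over the aging slope and from 11 to 10 over UV, and stayed at 8 for D1 dauers against L3 larvae, 25 over the steps, 22 at 6 h, 5 for exit slope by day and 3 for UV by hour.

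Counts over all genes moved by over 1.5 times for UV on D1 at 24 h (1530, against 1010 with DESeq2), on D4 at 6 h (150, against 353 without the filter and 316 with 54 libraries in 1 fit) and at 24 h (16, against 66, 37 and, with DESeq2, 32), and for the exit slope on D4 (5492, against 8577 with 54 libraries in 1 fit). The causes were not tested.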
